A study of Mus musculus with 6 samples.

Results

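The genes described here are 32 genes of the oxidant balance of macrophages: the transcription factor NRF2 and its regulators, the enzymes of the glutathione, thioredoxin and peroxide systems, and 4 subunits of the phagocyte NADPH oxidase. They were taken by symbol from the 55353 rows of a table of read counts per gene, and all 32 were found and passed the filter on low counts, among 14987 genes tested. The libraries were made from macrophages sorted from calf muscle 3 days after hindlimb ischemia, a surgical loss of blood flow to the leg. There were 3 libraries of mice labelled pfkfb3-ko (KO) and 3 of mice labelled WT, all on a mixed background given as 129S1/Sv * 129X1/SvJ * C57BL/6 * CBA. Mice received 1 mg of tamoxifen by intraperitoneal injection on 5 days in a row, with at least 7 days of washout, and between 7000 and 50000 cells were lysed per sample. The same treatment text stands with the samples of both groups. Pfkfb3 encodes an enzyme that promotes glycolysis. The genotype label gives no cell type for the deletion, but the series design adds EC to the name of the deleted gene, and the series title speaks of endothelial cells. The sources used here do not give the promoter that drove recombination, nor the age or sex of the mice. The comparison asked how macrophages of the injured muscle differ when the gene is deleted, here for the genes that make and remove superoxide and peroxide.

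In phagocytes, the NADPH oxidase passes electrons from NADPH to oxygen and so makes superoxide. Superoxide dismutases turn superoxide into hydrogen peroxide, which catalase, glutathione peroxidases and peroxiredoxins remove. Glutathione and thioredoxin supply the electrons for most of this and are themselves reduced at the cost of NADPH. NRF2, encoded by Nfe2l2, switches on many of these antioxidant genes by binding the antioxidant response element in their promoters. KEAP1 holds NRF2 in the cytoplasm and marks it for breakdown, and oxidants release it.

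The antioxidant response element is the sequence that NRF2 reads, so its core was searched in the 28 members with an entry in the RefSeq promoter table (GRCm38.p6). Each of their 35 promoters ran from 250 bases before to 50 bases after a listed start. A listed start can lie inside the gene, as for Txnrd1, whose window begins at 82859104 where the annotated gene begins at 82833951. The core TGACNNNGC, on either strand, was found in 7 of these 35 promoters (20%) and in 12.4% of all 32851 promoters of the table, or 14.3% of those of tested genes. The windows below show it in capitals with up to 10 bases on each side, written along the strand that carries the core. They are shown to tell apart the members with a listed promoter that holds these letters from those without.
Nfe2l2 (chr2:75704885-75704913, minus strand): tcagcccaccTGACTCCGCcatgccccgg
Prdx1 (chr4:116685456-116685484, minus strand): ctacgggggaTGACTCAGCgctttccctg
Gclm (chr3:122245413-122245441, minus strand): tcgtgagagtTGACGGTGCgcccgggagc
Txnrd1 (chr10:82859104-82859132, minus strand): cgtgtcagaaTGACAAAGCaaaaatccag
Srxn1 (chr2:152105542-152105570, minus strand): tgtctcactcTGACCTAGCtgcccactgc
Mgst1 (chr6:138140461-138140489, minus strand): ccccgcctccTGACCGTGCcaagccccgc
Sod1 (chr16:90220696-90220724, minus strand): ggcctgagtcTGACCACGCccaccttggc
The core in the Prdx1 promoter also holds the AP-1 site TGACTCA, which the other 6 cores do not. None of the 7 cores overlapped GAGGAA, the core of the myeloid factor PU.1, which was found in 9 of the 35 member promoters (25.7%) and in 28.3% of all promoters, or 27.0% of those of tested genes. None of the 7 genes with the core passed the edgeR test of KO against WT, where their log2 fold changes were -0.30 to 0.35, 2 of them above 0. At an unadjusted p under 0.05 there were 0 of these 7, by DESeq2 0 were called, and by limma-voom 2 were higher, where these rules passed 23.5%, 12.7% and 32.4% of all genes. Of the 21 members with a listed promoter that lacks the core, edgeR called none, with 4 at an unadjusted p under 0.05, 2 called by DESeq2 and 7 by limma-voom, and 13 had a log2 fold change above 0. A match is a description of letters, and its absence says only that they are not in this window. Gclc, Gsr, Prdx6 and Ncf4 are named here without a promoter, so they are in neither count. Among them are Prdx6, the only member that edgeR called, and Gclc and Ncf4, which DESeq2 called along with Prdx6. The 21 members without the core include the oxidase subunits Cybb, Cyba and Ncf1.

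Levels are given as CPM, counts scaled to a common library size with TMM factors, which were 0.713 to 0.892 in KO and 1.23 to 1.26 in WT. Library totals were 18853712 to 21070130 counts in KO and 21029637 to 29060584 counts in WT. The small RNA model Gm23935 took 31.7% to 46.3% of the counts in KO and 13.7% to 16.8% in WT, and protein-coding genes held 9176529 to 12422641 and 16995741 to 22751787 counts. The KO libraries held 55.5, 59.3 and 160 CPM of Pfkfb3 itself, against 70.9, 101 and 82.4 CPM in the WT libraries, and this level in macrophages does not check a deletion in endothelial cells. Xist reached 154 and 171 CPM in the first 2 KO replicates and 0.465 CPM or less in KO replicate 3 and in the WT libraries, so KO replicate 3 differs from the other 2 KO libraries in this female marker. The 8 macrophage markers summed to 8360 to 8775 CPM in KO and 5987 to 8591 CPM in WT, and the 6 lymphocyte markers to at most 0.906 CPM in KO and 0.675 CPM in WT. Lyz2 made up most of the macrophage sum, at 4869 ± 179 CPM in KO and 4316 ± 971 CPM in WT (SD, n = 3 each). Of the other markers Csf1r was called higher, at 1765 ± 154 CPM in KO and 852 ± 101 CPM in WT (edgeR adjusted p = 0.010), and Cd68 lower, at 475 ± 75.4 CPM in KO and 793 ± 78.9 CPM in WT (edgeR adjusted p = 0.034). The Csf1r call did not hold without WT replicate 2, KO replicate 1 or KO replicate 2 (adjusted p up to 0.075), and that of Cd68 held in the leave-outs only without KO replicate 3 (otherwise up to 0.13). Whether each library is a separate animal is not stated, so the p-values stand for the spread between libraries, which may be technical.

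Of the 32 members, 1 was lower in KO and none was higher (edgeR quasi-likelihood test, Benjamini-Hochberg adjusted p under 0.05 over all genes tested), where 6.64% of all tested genes were called, 4.39% higher and 2.25% lower. The one that fell was Prdx6. The median log2 fold change of the members was 0.0056, against 0.013 over all tested genes, with 16 members above 0 and 16 below. At an unadjusted p under 0.05 there were 7 members, 4 higher and 3 lower, where 23.5% of all tested genes passed, 13.1% higher and 10.3% lower. KO and WT libraries did not overlap in 10 members (31.2%), 7 with KO above and 3 with KO below, against 31.5% of all tested genes, 16.8% with KO above and 14.7% with KO below. The share of members with separate groups was thus near that of all tested genes, and below the 37.9% of those with a mean of at least 10 CPM. The 95% interval of the log2 fold change lay within -1 and 1 for 27 of the 32 members (84.4%), against 54.1% of all tested genes and 84.6% of those with a mean of at least 10 CPM. Changes of more than a doubling or halving were therefore outside the interval for those 27 genes; the other 5 were Nqo1, Mgst1, Osgin1, Cybb and Gpx3. Counts of the members ran from 3 to 18991 per library.

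Other tools gave other counts, and the backgrounds moved with them. DESeq2 called 5 members where it called 12.7% of all genes: Gpx3, Cybb and Ncf4 higher (7.43% of all genes) and Prdx6 and Gclc lower (5.3%). With limma-voom and library weights 9 members were higher and 3 lower, where 32.4% of all genes were called, 17.4% higher and 15.0% lower. With library sizes alone 18 members were lower and none higher, where 42.1% of all genes were called, 2.0% higher and 40.1% lower. With no count filter the 5 members called by DESeq2 were called (3.18% of all genes higher, 2.84% lower, 6.03% in all), and with protein-coding genes alone Prdx6 and Gclc (10.1% of genes). Prdx6 alone was called with DESeq2 size factors (6.59% of genes) or at a CPM of at least 1 in 3 libraries (7.96%). Without WT replicate 1 the one member called was Cybb (3.78% of genes), and without WT replicate 3 it was Prdx6 (3.07%). No member was called without WT replicate 2 (1.77% of genes), KO replicate 1 (1.86%), KO replicate 2 (1.2%) or KO replicate 3 (10.7%), with KO replicates 1 and 2 both left out (0.844%), or with the ending of the library title as a block (1.78%).

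**Figure D1:**
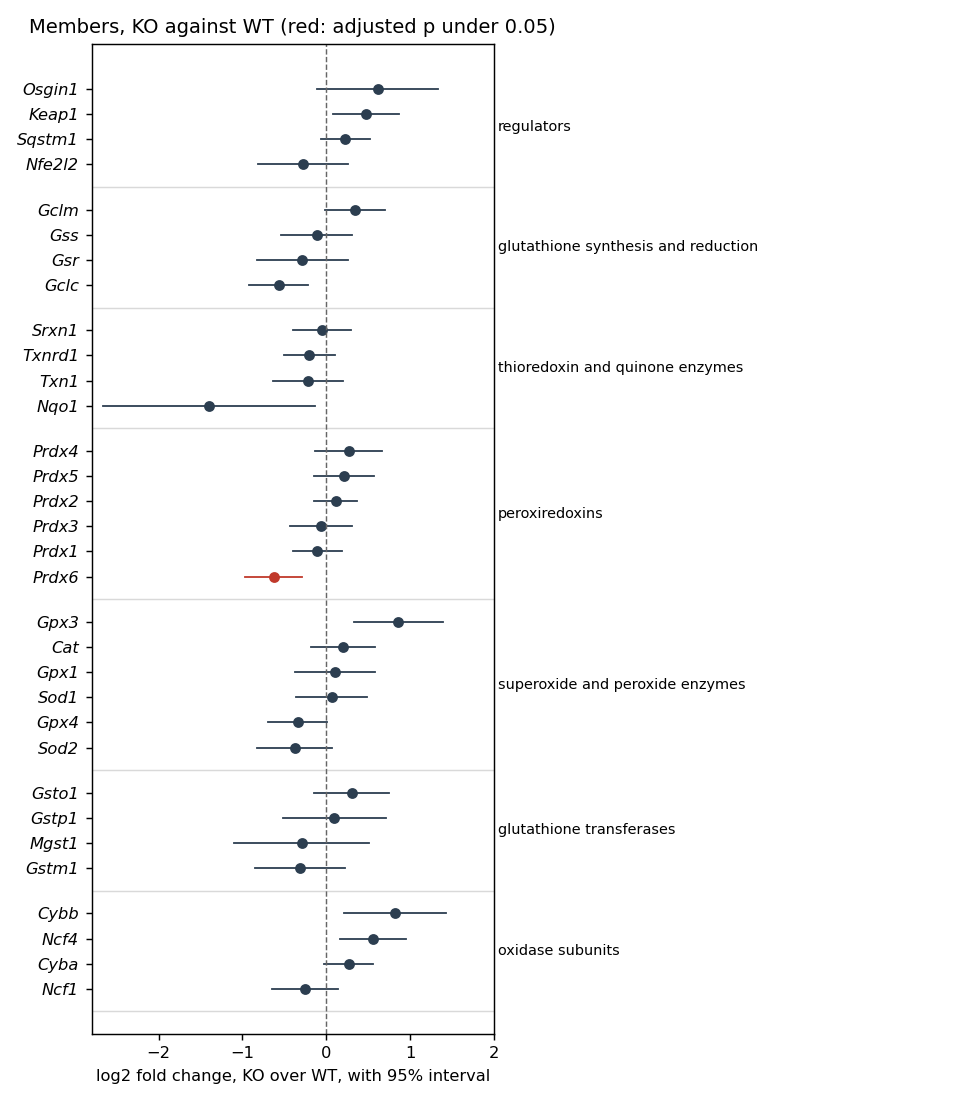
Log2 fold change of each member, KO over WT, from the edgeR quasi-likelihood fit (points) with its 95% interval (lines), by role; the member with an adjusted p under 0.05 is red. Prdx6, at -0.63, is the only red point, and the interval of Nqo1 is the widest.

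Per kilobase of exon, Gpx1, the main cytosolic glutathione peroxidase, stood highest among the members in both groups, at 390 ± 112 CPM per kilobase in KO libraries and 362 ± 7.79 CPM per kilobase in WT libraries (SD, n = 3 each). Cyba was next, at 314 ± 21.3 CPM per kilobase in KO and 261 ± 22.3 in WT. Cybb ranked 3 in KO and 4 in WT, at 135 ± 7.93 and 76.6 ± 31.1 CPM per kilobase. Nqo1 was the lowest member, at 0.206 CPM per kilobase in KO and 0.545 in WT. The length is the union of all annotated exons of the gene, which understates the level of a gene whose main transcript is short.

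The catalytic core of the oxidase is a membrane pair, NOX2 (gp91phox), encoded by Cybb, and its partner p22phox, encoded by Cyba. Of the 4 oxidase subunits edgeR called none, with 2 at an unadjusted p under 0.05, while 2 were higher by DESeq2 and 3 by limma-voom. Of all genes 13.1% were higher at an unadjusted p under 0.05, 7.43% by DESeq2 and 17.4% by limma-voom, and 16.8% had every KO library above every WT library. Cybb (ENSMUSG00000015340, chromosome X, 9435252 to 9487771, GRCm38) was at 737, 790 and 829 CPM in KO replicates 1 to 3, against 632, 432 and 271 CPM in WT replicates 1 to 3. Every KO library lay above every WT library, while the WT libraries themselves spread over more than the gap between the groups. The means were 785 ± 46.1 CPM in KO and 445 ± 181 CPM in WT (SD, n = 3 each; log2 fold change 0.82, 95% interval 0.21 to 1.43, edgeR adjusted p = 0.11). The gene lies on the X chromosome, and KO replicate 3, with Xist at 0.129 CPM, had the highest level of the 6 libraries. A part of sex in the Cybb levels was not tested. Without WT replicate 1 the log2 fold change of Cybb was 1.16 and the gene was called higher (edgeR adjusted p = 0.033); without WT replicate 3 it was 0.56.

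Cyba (chromosome 8, 122424776 to 122432930) was at 331, 346 and 302 CPM in KO replicates 1 to 3, against 291, 277 and 246 CPM in WT replicates 1 to 3. The groups did not overlap, by a gap of 302 against 291 CPM between the lowest KO and the highest WT library, and the log2 fold change was 0.27 (SE 0.13, edgeR adjusted p = 0.25). With library sizes alone its sign turned, to -0.35, where the median of all tested genes was -0.60. Both membrane subunits were thus separate between the groups without passing the test across all genes.

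The other 2 subunits measured here sit in the cytosol until the enzyme is switched on. Ncf4, which encodes p40phox and binds the lipid of the phagosome membrane, was at 151, 155 and 142 CPM in KO replicates 1 to 3, against 78.1, 126 and 99.8 CPM in WT replicates 1 to 3. All KO libraries were above all WT libraries, with a log2 fold change of 0.56 (95% interval 0.17 to 0.95, edgeR adjusted p = 0.088; DESeq2 adjusted p = 0.045), or -0.058 with library sizes alone. Ncf1, which encodes the organizer p47phox, was at 187, 210 and 214 CPM in KO replicates 1 to 3, against 293, 250 and 186 CPM in WT replicates 1 to 3. The KO libraries lay within the range of the WT libraries, and the log2 fold change was -0.26 (95% interval -0.65 to 0.14, edgeR adjusted p = 0.42). In WT, replicate 1 was the highest of the 3 libraries for Cybb, Cyba and Ncf1 and the lowest for Ncf4. WT replicate 1 also had the highest summed level of the endothelial marker list, at 117 CPM against 53.9 to 58.9 CPM in WT replicates 2 and 3, and its part in these values was not tested.

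The oxidase is also abundant in neutrophils, so their markers were read beside it. Of the 11 neutrophil markers, Ly6g was at 0 in all 6 libraries, and S100a9 was at 0 in the KO libraries and at 0 to 0.293 CPM in the WT libraries. The list summed to 92.3 to 311 CPM in KO and 67.1 to 95.2 CPM in WT. Most of this sum came from Csf3r and Mmp9, and Mmp9 was at 268, 162 and 18.9 CPM in KO replicates 1 to 3 and at 13.7 to 25.1 CPM in WT. By edgeR Mmp9 was called higher (log2 fold change 3.07, adjusted p = 0.046), a call that held in the leave-outs only without KO replicate 3. Mmp8 was called lower, at 1.44 to 3.42 CPM in KO and 6.57 to 15.8 CPM in WT (log2 fold change -2.20, edgeR adjusted p = 0.018), and lost its call without WT replicate 2, KO replicate 1 or KO replicate 2 (up to 0.075). S100a8 was at 0.1599 to 0.387 CPM in KO and 0.8497 to 2.29 CPM in WT (log2 fold change -2.38, edgeR adjusted p = 0.058). Members of the list thus differed in opposite directions, and their part in the oxidase levels was not tested. In bulk RNA, fewer cells of a type and less RNA per cell cannot be told apart.

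**Figure D2:**
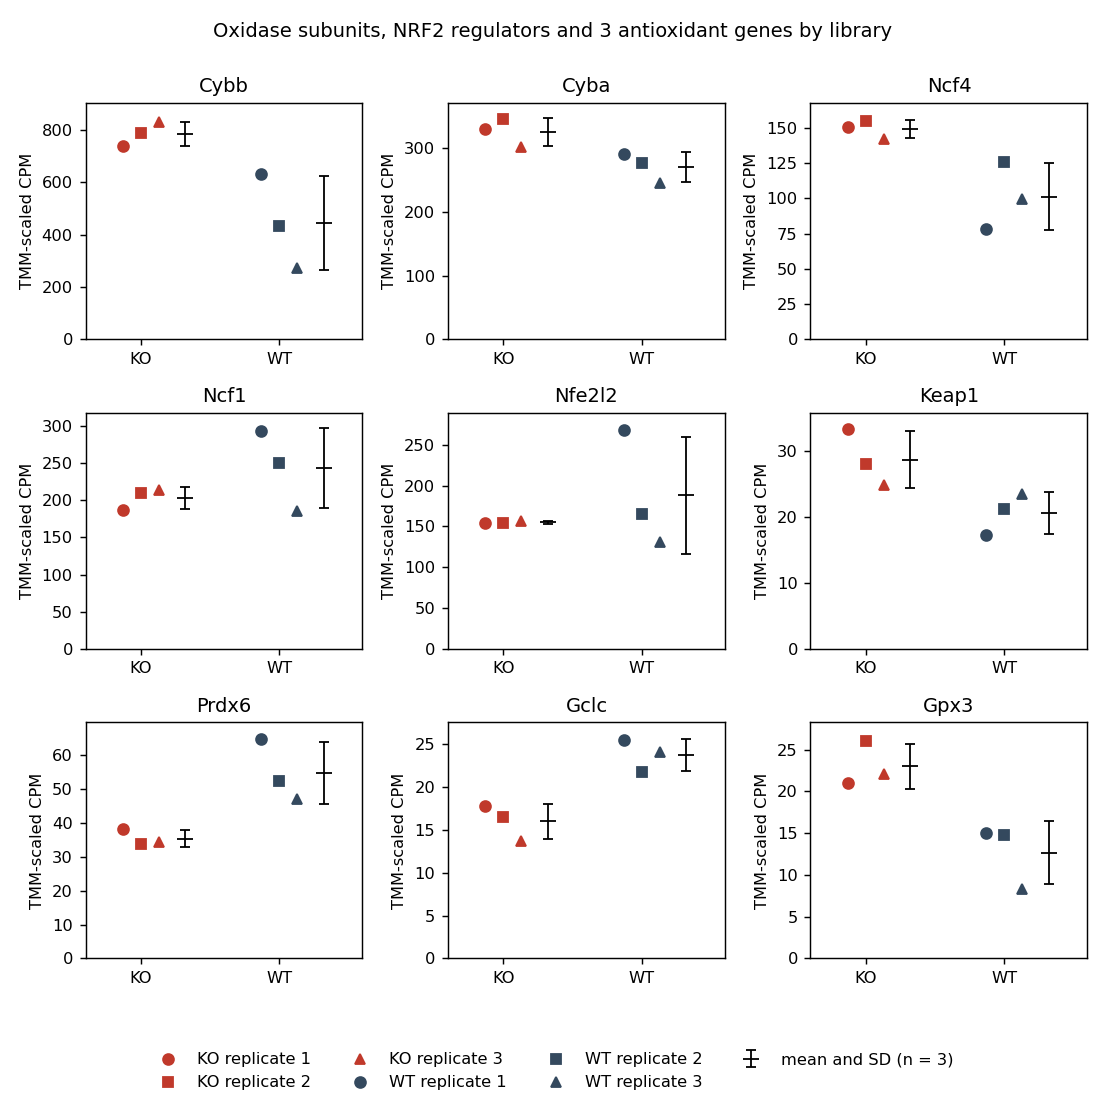
Level of the 4 oxidase subunits, Nfe2l2, Keap1, Prdx6, Gclc and Gpx3 in each library (vertical axis, TMM-scaled CPM from 0), KO in red and WT in dark blue, with a marker for each replicate and the mean and SD of 3 libraries in black. Cybb, Cyba, Ncf4, Keap1 and Gpx3 were higher in each KO library than in each WT library, Prdx6 and Gclc were lower, and for Nfe2l2 and Ncf1 the groups overlapped.

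Of 14 further genes listed for the oxidase and its switches, 8 had enough counts to be tested, and edgeR called none. At an unadjusted p under 0.05 there were 3, all higher, while DESeq2 called 1 higher and limma-voom 3 higher. The shares of all genes that were higher by these rules were 13.1%, 7.43% and 17.4%. Hvcn1, the voltage-gated proton channel that balances the charge of the oxidase, was at 44.9, 44.6 and 38.0 CPM in KO replicates 1 to 3, against 35.5, 20.8 and 14.3 CPM in WT replicates 1 to 3. Its groups did not overlap, at a log2 fold change of 0.86 (edgeR adjusted p = 0.11; DESeq2 adjusted p = 0.046). Rac2, the small GTPase of blood cells that completes the enzyme, was at 101 ± 9.06 CPM in KO and 81.4 ± 5.84 CPM in WT (SD, n = 3 each; edgeR adjusted p = 0.17). The other catalytic subunits Nox1, Nox4, Duox1 and Duox2 were too low to be tested, at up to 0.480 CPM in a library. Hvcn1 and Rac2 were named after their values were seen, for their roles.

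Relative to the 28 antioxidant members, the summed oxidase subunits stood higher in the KO libraries, without a test. Their summed level was 1406, 1500 and 1488 CPM in KO replicates 1 to 3, against 1294, 1085 and 802 CPM in WT replicates 1 to 3. The 28 antioxidant members summed to 2504, 2373 and 1893 CPM in KO replicates 1 to 3, against 2409, 2151 and 2148 CPM in WT replicates 1 to 3. These 28 are all members but the oxidase subunits, so the 4 regulators Nfe2l2, Keap1, Sqstm1 and Osgin1 are in the sum beside the enzymes. Sqstm1 alone had a mean of 375 CPM in KO and 320 CPM in WT. Gpx1 made up 20.1% to 27.5% of the sum in KO and 21.3% to 24.9% in WT. The oxidase sums were separate between the groups and the antioxidant sums overlapped, at 2257 ± 322 CPM in KO and 2236 ± 150 CPM in WT (SD, n = 3 each). The ratio of the 2 sums was 0.561, 0.632 and 0.786 in KO replicates 1 to 3, against 0.537, 0.504 and 0.373 in WT replicates 1 to 3. The mean log2 ratio was -0.61 ± 0.25 in KO and -1.10 ± 0.28 in WT, a difference of 0.49, and no test was made of a sum over chosen genes. The lowest KO and the highest WT library were 0.561 and 0.537, a gap smaller than the spread within either group. Cybb alone made up 52.5% to 55.7% of the oxidase sum in KO and 33.7% to 48.8% in WT. Without Cybb the log2 ratios overlapped, at -1.91 to -1.52 in KO and -2.02 to -1.72 in WT, and the difference was 0.14. A ratio within a library does not depend on the scaling of library sizes.

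**Figure D3:**
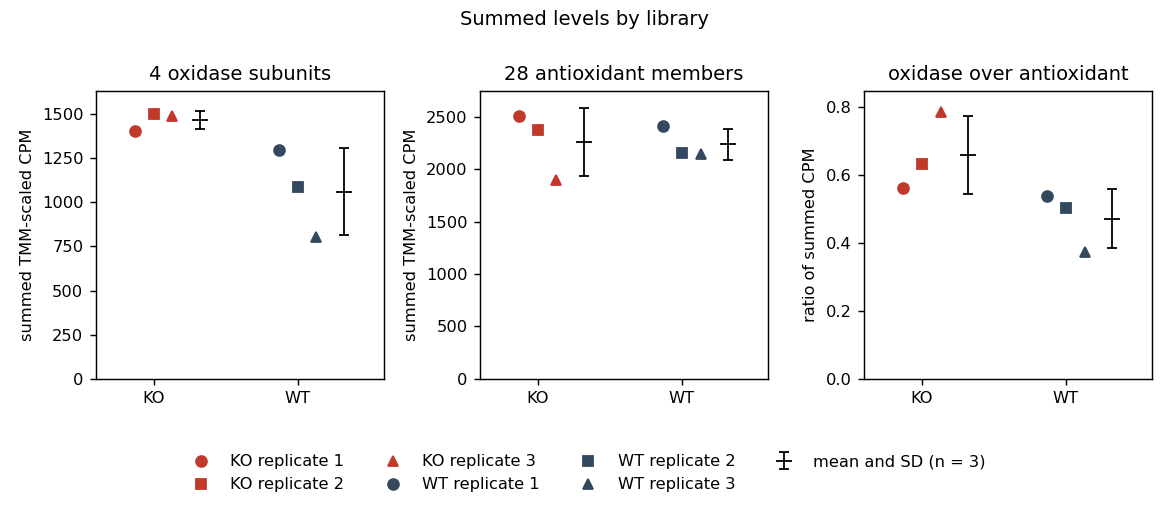
Summed TMM-scaled CPM of the 4 oxidase subunits (left) and of the 28 antioxidant members, regulators included (middle), and the ratio of these sums (right), in each library, KO in red and WT in dark blue, with the mean and SD of 3 libraries in black. The ratio is 0.561 to 0.786 in KO and 0.373 to 0.537 in WT, and the antioxidant sums overlap.

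Among the 4 regulators none passed the edgeR test, with 1 at an unadjusted p under 0.05, 0 called by DESeq2 and 2 higher by limma-voom. In either direction these rules passed 6.64%, 23.5%, 12.7% and 32.4% of all genes. Nfe2l2 (chromosome 2, 75675513 to 75704641) was at 154, 154 and 156 CPM in KO replicates 1 to 3, against 268, 165 and 131 CPM in WT replicates 1 to 3. The KO libraries were nearly equal and lay inside the WT range. The means were 155 ± 1.38 CPM in KO and 188 ± 71.4 CPM in WT (SD, n = 3 each; log2 fold change -0.28, 95% interval -0.81 to 0.25, edgeR adjusted p = 0.52), and without WT replicate 1 the log2 fold change was 0.066. Keap1 (chromosome 9, 21229730 to 21239361) was at 33.3, 27.96 and 24.8 CPM in KO replicates 1 to 3, against 17.2, 21.2 and 23.4 CPM in WT replicates 1 to 3. Its groups were separate by a gap of 24.8 against 23.4 CPM, with a log2 fold change of 0.48 (95% interval 0.08 to 0.87, edgeR adjusted p = 0.14; limma-voom adjusted p = 0.0074), or -0.13 with library sizes alone. Sqstm1, which encodes p62, an autophagy receptor that binds KEAP1, was at 388, 399 and 337 CPM in KO replicates 1 to 3, against 315, 314 and 330 CPM in WT replicates 1 to 3. Its groups were separate too, by 337 against 330 CPM, with a log2 fold change of 0.23 (edgeR adjusted p = 0.32), or -0.39 with library sizes alone. Osgin1, an NRF2 target named for its induction by oxidant stress, was at 7.44 ± 2.62 CPM in KO and 4.86 ± 1.47 CPM in WT (edgeR adjusted p = 0.29). Its highest library was KO replicate 3, at 10.4 CPM.

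Other parts of the degradation machinery were read from a further list of 27 NRF2 regulators and targets. Cul3, the ubiquitin ligase scaffold that KEAP1 recruits, was at 78.4, 80.5 and 84.2 CPM in KO replicates 1 to 3, against 131, 107 and 107 CPM in WT replicates 1 to 3, and was chosen for its role after its values were seen. The groups did not overlap, and the log2 fold change was -0.50 (95% interval -0.79 to -0.21, edgeR adjusted p = 0.051; DESeq2 adjusted p = 0.0097). With a single library left out its adjusted p ranged from 0.040 to 0.18 over the 6 leave-outs.

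Glutathione is made in 2 steps. The first is set by glutamate-cysteine ligase, with the catalytic subunit Gclc and the modifier subunit Gclm, and the second by the synthetase Gss; Gsr then keeps glutathione reduced. None of these 4 genes passed the edgeR test, and 1 had an unadjusted p under 0.05. By DESeq2 1 was lower, and by limma-voom 1 was lower and 1 higher. Of all genes 23.5% had an unadjusted p under 0.05, while DESeq2 called 12.7% and limma-voom 32.4%. Gclc (chromosome 9, 77754535 to 77794485) was at 17.8, 16.5 and 13.7 CPM in KO replicates 1 to 3, against 25.4, 21.7 and 24.1 CPM in WT replicates 1 to 3. All KO libraries were below all WT libraries (log2 fold change -0.57, 95% interval -0.92 to -0.22, edgeR adjusted p = 0.063; DESeq2 adjusted p = 0.020). Gclm was at 25.1, 25.8 and 19.7 CPM in KO replicates 1 to 3, against 20.1, 18.4 and 17.0 CPM in WT replicates 1 to 3. Its groups overlapped by a single library of each group, and the log2 fold change was 0.35 (95% interval -0.01 to 0.70, edgeR adjusted p = 0.23), or -0.27 with library sizes alone. The 2 subunits of the ligase therefore had estimates of opposite sign, and neither passed the test. Gss was at 6.80 ± 0.633 CPM in KO and 7.37 ± 0.711 CPM in WT (edgeR adjusted p = 0.76). Gsr was at 28.9 ± 6.34 CPM in KO and 35.3 ± 11.2 CPM in WT (SD, n = 3 each; edgeR adjusted p = 0.52).

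None of the 4 thioredoxin and quinone genes passed the edgeR test, with 1 at an unadjusted p under 0.05 and 0 called by DESeq2 or by limma-voom. Across all genes 23.5% had an unadjusted p under 0.05, and DESeq2 called 12.7% and limma-voom 32.4%. Txn1, thioredoxin itself, was at 66.8 ± 16.8 CPM in KO and 78.0 ± 5.43 CPM in WT (edgeR adjusted p = 0.51). Txnrd1, the selenoenzyme that reduces it, was at 121 ± 12.02 CPM in KO and 139 ± 14.9 CPM in WT (edgeR adjusted p = 0.41). Srxn1, which repairs overoxidized peroxiredoxins, was at 31.5 ± 3.70 CPM in KO and 32.7 ± 4.34 CPM in WT (edgeR adjusted p = 0.88). Nqo1, a quinone reductase and textbook NRF2 target, was barely detected in these macrophages. It had 5, 7 and 3 counts in KO replicates 1 to 3, against 31, 23 and 24 counts in WT replicates 1 to 3, or 0.267, 0.499 and 0.193 CPM in KO and 1.202, 0.630 and 0.704 CPM in WT. All KO libraries were below all WT libraries, but the interval of the log2 fold change was wide (-1.40, 95% interval -2.66 to -0.13, edgeR adjusted p = 0.17).

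Peroxiredoxins are thiol enzymes that reduce peroxides. Prdx6 fell, and the other 5 did not pass the test. DESeq2 and limma-voom also called Prdx6 alone, where they called 12.7% and 32.4% of all genes. Prdx6 (ENSMUSG00000026701, chromosome 1, 161240112 to 161251219, GRCm38), the family member with a single active cysteine, which also handles phospholipid peroxides, was at 38.2, 33.7 and 34.2 CPM in KO replicates 1 to 3, against 64.7, 52.4 and 47.0 CPM in WT replicates 1 to 3. All KO libraries were below all WT libraries, at means of 35.4 ± 2.45 CPM in KO and 54.7 ± 9.05 CPM in WT (SD, n = 3 each; log2 fold change -0.63, SE 0.15, edgeR adjusted p = 0.042). The call was kept without WT replicate 3 (edgeR adjusted p = 0.0496) and did not hold when WT replicate 1 or 2, or any KO replicate, was left out, at adjusted p-values of 0.052 to 0.17, with log2 fold changes of -0.73 to -0.49 in all 6 leave-outs. All endothelial markers had a log2 fold change below 0, and edgeR called 5 of the 10 lower in KO. They summed to 17.3 to 33.2 CPM in KO and 53.9 to 117 CPM in WT, and their part in the fall of Prdx6 was not tested.

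Prdx1, the highest peroxiredoxin per kilobase of exon in both groups, was at 186 ± 21.3 CPM in KO and 200 ± 7.04 CPM in WT (edgeR adjusted p = 0.67). Prdx2 was at 64.3, 70.4 and 63.8 CPM in KO replicates 1 to 3, against 59.9, 62.7 and 61.0 CPM in WT replicates 1 to 3. Its groups did not overlap, at a log2 fold change of 0.11 (edgeR adjusted p = 0.60), or -0.51 with library sizes alone. The mitochondrial Prdx3 was at 22.5 ± 4.001 CPM in KO and 23.6 ± 1.01 CPM in WT (edgeR adjusted p = 0.85). Prdx4 of the endoplasmic reticulum, encoded on the X chromosome, was at 38.3, 31.5 and 24.4 CPM in KO replicates 1 to 3, against 23.7, 27.7 and 27.0 CPM in WT replicates 1 to 3 (edgeR adjusted p = 0.41). KO replicates 1 and 2, the libraries with Xist, were above the WT libraries, while KO replicate 3 lay within their range. KO replicate 3 was the lowest KO library in 21 of the 28 antioxidant members (75.0%), against 42.0% of all tested genes. A part of sex in the Prdx4 levels was not tested. Prdx5 was at 87.7 ± 3.76 CPM in KO and 75.9 ± 15.4 CPM in WT (SD, n = 3 each; edgeR adjusted p = 0.47).

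Of the 6 superoxide and peroxide enzymes none passed the edgeR test, and 1 had an unadjusted p under 0.05. By DESeq2 1 was higher, and by limma-voom 3 were higher and 1 lower. Shares over all genes were 23.5% at an unadjusted p under 0.05, 12.7% by DESeq2 and 32.4% by limma-voom. Gpx3 (chromosome 11, 54902453 to 54910377), a secreted glutathione peroxidase, was at 20.9, 26.0 and 22.0 CPM in KO replicates 1 to 3, against 15.0, 14.7 and 8.33 CPM in WT replicates 1 to 3. All KO libraries were above all WT libraries, at the largest positive log2 fold change of the 32 members (0.86, 95% interval 0.33 to 1.39, edgeR adjusted p = 0.063; DESeq2 adjusted p = 0.014). Fibroblasts and muscle also make Gpx3, and their markers were higher in the KO libraries. The 9 fibroblast markers, of which 5 were called higher, summed to 136 to 187 CPM in KO and 11.7 to 40.7 CPM in WT. Most of this sum came from the collagen genes Col1a1, Col1a2 and Col3a1, while Dcn, Pdgfra and Pdgfrb were not called and their groups overlapped. The 10 muscle markers, of which 7 were called higher, summed to 96.9 to 153 CPM in KO and 20.6 to 27.999 CPM in WT. The part of fibroblasts and muscle in the level of Gpx3 was not tested.

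Gpx1 was at 688, 616 and 380 CPM in KO replicates 1 to 3, against 512, 521 and 534 CPM in WT replicates 1 to 3. KO replicates 1 and 2 were above and KO replicate 3 below all WT libraries, and the log2 fold change was 0.10 (95% interval -0.37 to 0.58, edgeR adjusted p = 0.81). Sod1, the cytosolic dismutase, was likewise at 168, 153 and 103 CPM in KO replicates 1 to 3, against 148, 123 and 135 CPM in WT replicates 1 to 3 (edgeR adjusted p = 0.88). Again the KO libraries lay on both sides of the WT range. Sod2, the mitochondrial dismutase that inflammatory signals induce, was at 40.9 ± 7.32 CPM in KO and 53.2 ± 12.1 CPM in WT (edgeR adjusted p = 0.29). Cat, catalase, was at 85.7 ± 15.1 CPM in KO and 74.5 ± 10.7 CPM in WT (edgeR adjusted p = 0.52). Gpx4, which clears lipid peroxides and guards against ferroptosis, was at 40.4 ± 2.63 CPM in KO and 51.2 ± 9.09 CPM in WT (SD, n = 3 each; log2 fold change -0.34, edgeR adjusted p = 0.22). Reads of Gpx4 may be split with its pseudogene Gpx4-ps2, whose counts came to 19.1% of those of Gpx4.

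Glutathione transferases join glutathione to reactive compounds. None of the 4 members passed the edgeR test, with none at an unadjusted p under 0.05 and 0 called by DESeq2 or by limma-voom. Over all genes 23.5% had an unadjusted p under 0.05, and DESeq2 called 12.7% and limma-voom 32.4%. Gsto1 was at 34.7 ± 2.17 CPM in KO and 28.1 ± 7.81 CPM in WT, Gstm1 at 21.6 ± 1.78 CPM in KO and 26.8 ± 9.25 CPM in WT, and the membrane-bound Mgst1 at 14.5 ± 3.52 CPM in KO and 17.8 ± 9.58 CPM in WT (SD, n = 3 each). Adjusted p-values were 0.39 to 0.87 over the 4 genes in edgeR. Gstm1 was at 36.6 CPM and Mgst1 at 28.5 CPM in WT replicate 1, the highest of all 6 libraries for both genes. Gstp1 was low, at 3.87 ± 0.8499 CPM in KO and 3.61 ± 0.445 CPM in WT. Its reads may be split with Gstp-ps, whose counts came to 25.4% of its own, and with Gstp3, at 10.9%.

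The KO libraries differed among themselves over these genes. KO replicate 3 was the lowest of the 3 KO libraries in 21 of the 28 antioxidant members (75.0%), where it was the lowest in 42.0% of all tested genes. It was the lowest in 2 of the 4 oxidase subunits and the highest in the other 2. With KO replicates 1 and 2 both left out, which leaves KO replicate 3 alone against WT and assumes that it varies like the others, the median log2 fold change of the members was -0.29, where that of all genes tested was -0.0083. In WT, replicate 1 was the highest library in 19 of the 32 members (59.4%), where it was the highest in 38.2% of all tested genes. These orders are descriptions of single libraries, and the sex markers, the Gm23935 share and depth also differed between the libraries.

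**Figure D4:**
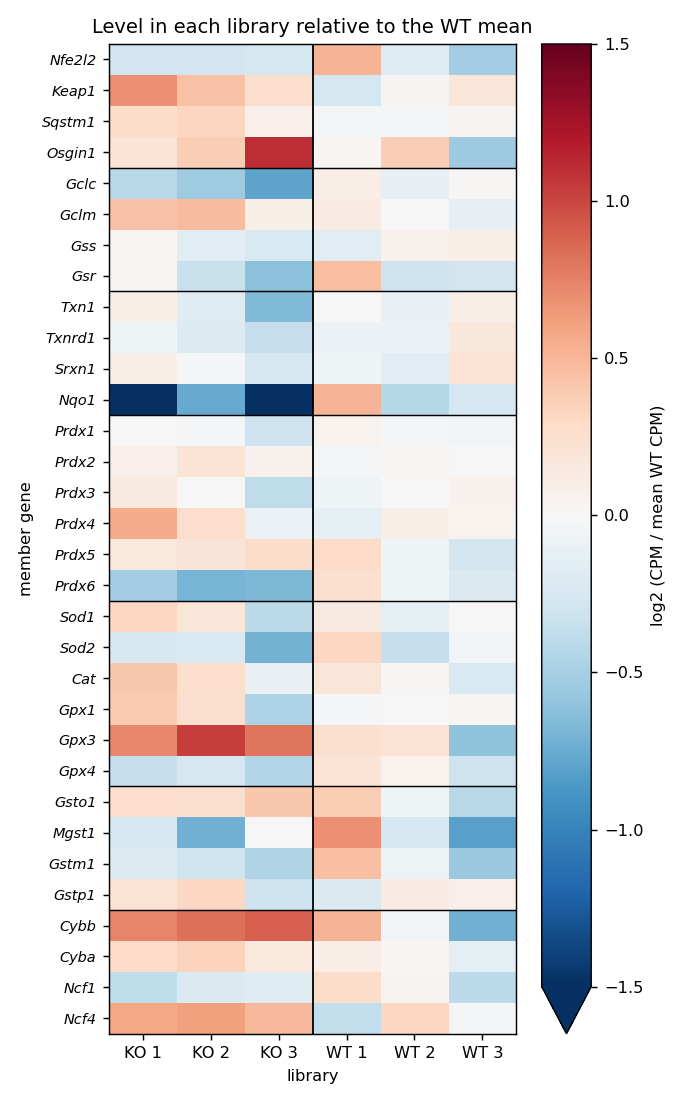
Level of each member (rows, grouped by role) in each library (columns, KO left of WT), as log2 of CPM over the mean CPM of the WT libraries; red is above and blue below that mean, and the scale is limited to -1.5 and 1.5. Cybb, Ncf4 and Gpx3 are red in the 3 KO libraries, Prdx6 and Gclc are blue, and KO replicate 3 is bluer than KO replicates 1 and 2 over most antioxidant rows.

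Genes of the same pathways outside the 32 were read from lists written with earlier results of these data known. Of 27 other NRF2 regulators and targets, 3 rose and none fell by edgeR, where 4.39% of all tested genes were higher and 2.25% lower. At an unadjusted p under 0.05 there were 7 higher and 2 lower, by DESeq2 5 higher and 1 lower, and by limma-voom 9 higher and 3 lower. Of all genes these rules called 13.1% higher and 10.3% lower, 7.43% higher and 5.3% lower, and 17.4% higher and 15.0% lower. The median log2 fold change was 0.12 against 0.01 over all tested genes. The 3 were Ephx1, Cbr3 and Cbr1, which detoxify epoxides and carbonyls. Ephx1, the microsomal epoxide hydrolase, was at 27.0, 27.5 and 26.6 CPM in KO replicates 1 to 3, against 11.3, 7.35 and 5.69 CPM in WT replicates 1 to 3. The groups were far apart (log2 fold change 1.74, SE 0.24, edgeR adjusted p = 0.0070), and the call was kept in all 6 leave-outs. The carbonyl reductase Cbr3 was at 7.39 ± 1.03 CPM in KO and 3.11 ± 0.333 CPM in WT (SD, n = 3 each; log2 fold change 1.25, edgeR adjusted p = 0.017), and its call did not hold when WT replicate 2 or 3, or KO replicate 1 or 2, was left out (highest adjusted p 0.074). Cbr1 was at 13.2 ± 0.652 CPM in KO and 8.01 ± 0.849 CPM in WT (log2 fold change 0.72, edgeR adjusted p = 0.037), and kept its call only without KO replicate 3. Without any of the other 5 libraries, WT replicates 1 to 3 and KO replicates 1 and 2, its adjusted p was up to 0.15.

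Of 28 further glutathione, thioredoxin and peroxide genes, 20 could be tested, of which 2 rose and none fell by edgeR, where 4.39% of all tested genes were higher and 2.25% lower. At an unadjusted p under 0.05 there were 5 higher and 4 lower, while DESeq2 gave 3 higher and 1 lower and limma-voom 6 higher and 3 lower. The shares over all genes were, in the same order, 13.1% and 10.3%, 7.43% and 5.3%, and 17.4% and 15.0%. Ggt5, a gamma-glutamyltransferase that cleaves leukotriene C4 and glutathione, was at 7.09, 8.06 and 11.02 CPM in KO replicates 1 to 3, against 0.349, 1.43 and 1.203 CPM in WT replicates 1 to 3. Every KO library was several times above every WT library (log2 fold change 3.10, 95% interval 2.09 to 4.11, edgeR adjusted p = 0.0082), and the call was kept in all 6 leave-outs. Sesn1, a sestrin that p53 and FOXO factors induce, was at 108, 121 and 160 CPM in KO replicates 1 to 3, against 53.2, 90.4 and 57.9 CPM in WT replicates 1 to 3. Its log2 fold change was 0.95 (edgeR adjusted p = 0.043), and the call held with WT replicate 2 left out but not with WT replicate 1 or 3, or any KO replicate, left out (highest adjusted p 0.12). All 5 of these genes stayed above 0 with library sizes alone, at log2 fold changes of 0.11 for Cbr1 to 2.49 for Ggt5. Fibroblast and muscle markers were higher in the same KO libraries, at the sums given with Gpx3, and their part in these rises was not tested.

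**Figure D5:**
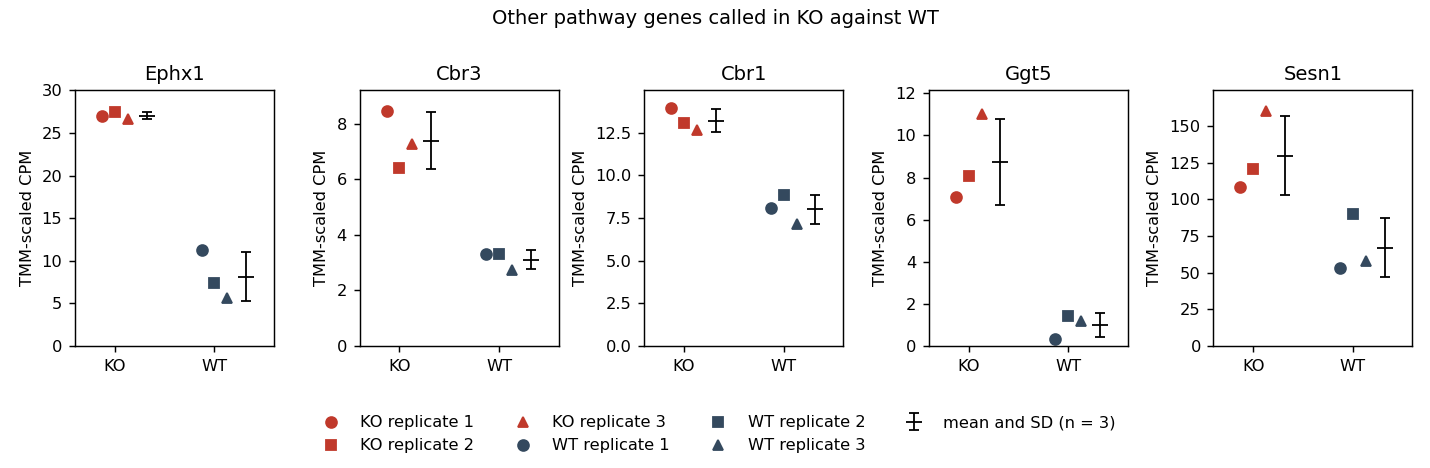
Level of the 5 other pathway genes called in KO against WT in each library (vertical axis, TMM-scaled CPM from 0), KO in red and WT in dark blue, with the mean and SD of 3 libraries in black. In each panel all 3 KO libraries lie above all 3 WT libraries.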

How the data were processed

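The authors deposited a single table of raw counts, with genes in rows and a column for each of the 6 SMARTer low-input libraries. The submitters' processing notes name featureCounts, HISAT2, FastQC, Trim Galore and DESeq and the build GRCm38; the sources used here give no version, annotation or strand setting. Exons of 7 members overlap a gene on the opposite strand (Sqstm1, Ncf1, Prdx5, Prdx2, Keap1, Gclm and Gss), whose reads cannot be told apart without strand. Exons of Gclm also overlap Gm6061 on the same strand, which strand would not separate. In 26 rows the symbol had become a date; they held 0.0913% to 0.163% of a library's counts and were left out. Genes were kept by filterByExpr, scaled by TMM and tested with edgeR 4.0.16 in R 4.3.3 (glmQLFit and glmQLFTest, two-sided, no covariate, all 6 libraries; called at a Benjamini-Hochberg adjusted p under 0.05). The fit was run on simulated counts with known changes and the same spread for every gene, a setting that does not cover libraries as unlike as these. Positions and exon lengths come from GENCODE M21. Promoters come from RefSeq (GRCm38.p6). Alternatives used DESeq2 1.42.0 and limma-voom in limma 3.58.1, other scalings and filters, leave-outs and a block on how the title of each sample ends. The members and lists were chosen with earlier results of these data known. All members were named; values in every library are given for the member called, for the regulators Nfe2l2 and Keap1 and for the oxidase subunits, and for others whose groups were separate or whose libraries stood apart, chosen after their values were seen. Other pathway genes were named where called, and Cul3, Hvcn1 and Rac2, which were not called, for their roles after their values were seen. Protein-coding genes held fewer counts in every KO library than in every WT library, which limits low genes.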

Additional observations from a re-analysis of the deposited data

How the results depend on the processing

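The count of members called, 1 in the edgeR fit over all 6 libraries, was 1 with DESeq2 size factors and with CPM of at least 1 in 3 libraries, 2 with protein-coding genes alone, 5 with no count filter and with the DESeq2 test, 12 with limma-voom, 18 with library sizes alone, 0 with the replicate block and 0 with KO replicates 1 and 2 both left out; it was 0 to 1 in the 6 leave-outs. The count of all genes called, 995, was 6308, 1957, 1870, 4850 and 149 with library sizes alone, no count filter, DESeq2, limma-voom and KO replicates 1 and 2 left out, and 189 to 1652 in the leave-outs. With the replicate block, on title endings shared by KO and WT libraries, it was 267; deviations of libraries with the same ending correlated at -0.14 to 0.0030, so the ending was not taken to pair them. The shift of the median of all genes to -0.60 with library sizes alone turned the sign of 14 members: Keap1 (-0.13), Gclm (-0.27), Prdx2 (-0.51), Prdx4 (-0.34), Prdx5 (-0.40), Sod1 (-0.55), Cat (-0.41), Gpx1 (-0.51), Gsto1 (-0.31), Gstp1 (-0.52), Osgin1 (-0.00477), Sqstm1 (-0.39), Cyba (-0.35) and Ncf4 (-0.058). KO replicate 3 alone turned Prdx4 (-0.15), Sod1 (-0.45), Cat (-0.16), Gpx1 (-0.51) and Gstp1 (-0.37), and limma-voom turned Gsr (0.025), Srxn1 (0.12) and Prdx3 (0.036). None of these was called in the fit over all libraries. In the leave-outs log2 fold changes crossed 0 for Nfe2l2 (-0.48 to 0.066), Gsr (-0.49 to 0.00283), Srxn1 (-0.15 to 0.061), Prdx3 (-0.20 to 0.075), Sod1 (-0.10 to 0.25), Gpx1 (-0.085 to 0.33), Mgst1 (-0.58 to 0.22) and Gstp1 (-0.038 to 0.27). The log2 difference of the oxidase to antioxidant ratio, 0.49, was 0.33 to 0.60 in the leave-outs, 0.75 with KO replicate 3 alone, 0.43 as a mean of log2 CPM and 0.14 without Cybb, an alternative chosen after seeing the data. Apart from scaling and fewer libraries, the cause of these differences was not tested. Counts of 3 to 31 per library limit Nqo1.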
